A study of Homo sapiens with 6 samples.

Results

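The genes described here are HIF1A, VHL, EGLN1 and EGLN3, which sense oxygen, and CA9, BNIP3, BNIP3L, SLC2A1, SLC2A3 and VEGFA, which are standard hypoxia targets. They were chosen by symbol, and all 10 were found among the 56638 genes of the count table. Poly(A) RNA was measured in MOLM-13, an established human line from acute monocytic leukaemia. Of 6 libraries, 3 came from cells given 2 µM UC-764864, which the series title names as an inhibitor of the ubiquitin-conjugating enzyme UBE2N (its design text writes UC-744864), and 3 from cells given DMSO, the solvent. All cells were grown in the same serum-containing medium and collected 24 h later, and the comparison asks how their transcripts differed. The oxygen level of the cultures is not given in the sources used here, and neither HIF protein nor hydroxylation was measured. Only 1 line was used, and whether each library had its own culture is not in the labels. The p-values therefore speak for the variation among these 6 libraries, and that variation could be technical.

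When oxygen is present, EGLN enzymes hydroxylate prolines of the HIF alpha subunit, the VHL ubiquitin ligase binds the hydroxylated protein, and the proteasome destroys it. When oxygen is scarce, HIF alpha persists, pairs with ARNT and binds hypoxia response elements, whose core reads ACGTG or GCGTG. The genes switched on move glucose into cells, redirect metabolism to glycolysis, remove mitochondria, balance pH and recruit blood vessels. EGLN1 and EGLN3 are themselves known HIF targets and so form a feedback loop, whereas HIF1A is best known for control at the level of its protein.

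After UC-764864, 7 of the 10 genes were lower and 0 were higher, where 8.13% of the 13490 genes tested were lower and 5.11% higher (edgeR quasi-likelihood test, Benjamini-Hochberg adjusted p under 0.05). The lower genes were CA9, EGLN3, BNIP3L, SLC2A3, EGLN1, BNIP3 and VEGFA, in order of their fitted change. This order is not fully settled. CA9 and EGLN3 rest on 15 and 22 counts after UC-764864, and the counting interval of EGLN3 overlaps those of CA9, BNIP3L and SLC2A3. The fitted changes of BNIP3L and SLC2A3, and of BNIP3 and VEGFA, differed by less than their SE. HIF1A, VHL and SLC2A1 did not pass the test. The median log2 fold change, UC-764864 over DMSO, was −0.67 over the 10 genes and 0.01 over all genes tested. For the same 7 genes, every UC-764864 library lay below every DMSO library. Of all genes tested, 36.1% did not overlap, counting both directions. The genes were chosen with earlier results of these data known, so their count is set beside the background and was not tested as a group. CA9 and EGLN3 passed the filter on low counts only through the DMSO libraries, so they had to be higher there to be tested at all.

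The promoter sequences below are shown because EGLN1, CA9 and BNIP3 all fell and each holds an ACGTG core before its start. They are RefSeq sequences of GRCh38.p14, a different build from the GRCh37 named for the counts. Each is 60 bases, written 5′ to 3′ along the gene's strand, with every ACGTG or GCGTG, or its reverse complement, in capitals. The CA9 and EGLN1 windows end at the base before the RefSeq start, and the BNIP3 window covers bases 150 to 91 before it.
CA9, chr9:35673868-35673927, plus strand: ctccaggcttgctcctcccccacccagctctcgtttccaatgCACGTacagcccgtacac
EGLN1, chr1:231422288-231422347, minus strand: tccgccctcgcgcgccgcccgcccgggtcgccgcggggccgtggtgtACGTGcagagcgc
BNIP3, chr10:131982014-131982073, minus strand: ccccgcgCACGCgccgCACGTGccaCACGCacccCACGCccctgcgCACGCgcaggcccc

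The CA9 core lies 18 bases before the start on the opposite strand, and the EGLN1 core lies 13 bases before it on the gene's strand. In BNIP3 the run of capitals that starts 134 bases before the start reads ACGTG on both strands, so these matches overlap, and GCGTG occurs 4 times on the opposite strand around it. Promoter windows of 300 bases, 250 before and 50 after the start, were matched for 6 of the 10 genes. Among the other matched genes, EGLN3 had neither core, SLC2A1 had a GCGTG 25 bases after its start, and HIF1A had a GCGTG 204 bases before 1 of its 2 starts. VHL, BNIP3L, SLC2A3 and VEGFA were not matched. On either strand, ACGTG occurred in 21.4% and GCGTG in 36.5% of all 35116 promoters of this length, and in 32.7% and 59.1% of the 8709 tested genes with a promoter. A match is a description of the letters, not of binding, and the start used in MOLM-13 may differ from that of RefSeq.

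Total counts ranged from 17073654 to 25014437 in the UC-764864 libraries and from 16136156 to 24511499 in the DMSO libraries. Libraries are called by their column names: UDI0051, UDI0052 and UDI0053 received UC-764864, and UDI0054, UDI0055 and UDI0056 received DMSO. Library UDI0055 stands at 0 in 3799 rows, X-linked and mitochondrial genes among them, which were left out. None of the 10 genes lies there. GC-rich genes took 18.8% of the counts in UDI0052 and 18.3% in UDI0056, and 21.7% to 24.3% elsewhere. UDI0052 and UDI0056 also had the lowest total counts, 17073654 and 16136156, and the part of depth in the results was not tested. Of 12 markers of monocytic leukaemia, 10 were above a mean of 1 CPM (counts scaled by the TMM-adjusted library total), and CD68 and CD14 were under it. Their summed level was 6540 to 7560 CPM after UC-764864 and 4330 to 4670 CPM after DMSO, most of it from the lysozyme gene LYZ, which rose by 0.88 ± 0.10 on the log2 scale (edgeR adjusted p = 0.00141). The other tested markers of this list were mixed. HOXA9 fell by 0.73 and CSF1R by 0.58 (edgeR adjusted p = 0.00647 and 0.0179). CEBPA and PTPRC, at −1.16 and −0.49, did not pass (adjusted p = 0.0646 and 0.0699). CD33 and SPI1, at 0.33 and 0.27, were higher in direction and did not pass either (adjusted p = 0.0599 and 0.302). FLT3, MEIS1 and MPO, at −0.11, −0.15 and 0.04, did not pass. The summed levels of lymphoid markers were 32.6 to 45.3 and 49.1 to 56.8 CPM, almost all from NKG7, of erythroid and megakaryocyte markers 0.129 to 0.474 and 0.461 to 0.707 CPM, and of stromal and epithelial markers 18.4 to 20.1 and 19.2 to 21.8 CPM. MS4A1, HBA1, HBA2, HBG1, PF4, COL3A1 and KRT19 were among the markers at 0 in every library. The part of these markers in the results was not tested, and in such bulk RNA fewer cells of a type and less RNA per cell cannot be told apart.

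**Figure D1:**
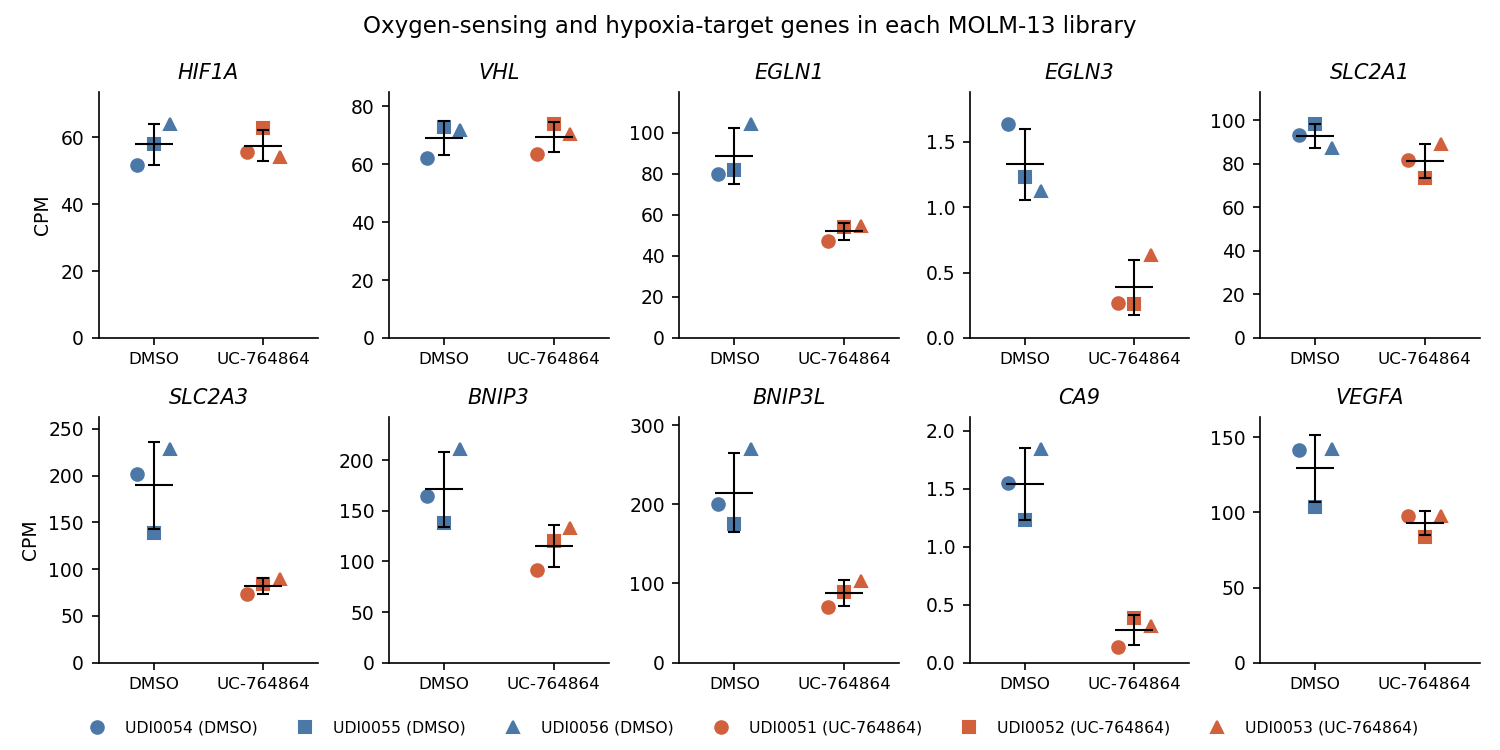
Scaled counts (CPM, vertical axes from 0) of each of the 10 genes in the 3 DMSO libraries (blue) and the 3 UC-764864 libraries (orange), with the group mean and SD in black; marker shapes only tell libraries apart and pair none. The groups are apart for EGLN1, EGLN3, SLC2A3, BNIP3, BNIP3L, CA9 and VEGFA, and they overlap for HIF1A, VHL and SLC2A1.

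HIF1A, the oxygen-regulated subunit of HIF-1, was at 55.5, 62.7 and 54.1 CPM in UDI0051, UDI0052 and UDI0053 and at 51.8, 57.8 and 63.9 CPM in UDI0054, UDI0055 and UDI0056. The groups overlap fully, and the highest library, UDI0056, and the lowest, UDI0054, were both DMSO libraries. The log2 fold change was −0.01 ± 0.12 (SE; edgeR adjusted p = 0.96), and by counting error alone the DMSO to UC-764864 ratio of summed counts lay between 0.956 and 1.05 (95% exact binomial interval). HIF1A is the most AT-rich of the 10 genes, at 38.9% GC over its transcripts. With each library's GC trend removed it was higher, at 0.30 ± 0.09 (adjusted p = 0.0172). The cause of this shift was not tested.

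VHL, the substrate receptor of the ligase that recognises hydroxylated HIF alpha, was at 63.7, 73.9 and 70.6 CPM after UC-764864 and at 62.3, 72.8 and 72.0 CPM after DMSO. Its log2 fold change of 0.01 ± 0.12 (SE; edgeR adjusted p = 0.973) was the one nearest to 0 among the 10 genes. The groups overlap, with a low and a high library in each. Its sign turned in several alternative fits, with sizes of at most 0.09, and none passed.

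EGLN1, which encodes PHD2, the main HIF prolyl hydroxylase, was at 47.0, 54.0 and 54.7 CPM after UC-764864 and at 79.8, 81.7 and 104 CPM after DMSO. All UC-764864 libraries lay below all DMSO libraries, and UDI0056 stood above the other DMSO libraries. It fell by 0.77 ± 0.13 on the log2 scale (edgeR adjusted p = 0.0078), to 58.7% of the DMSO level. The call held in each of 6 fits that left out 1 library (adjusted p from 0.00239 to 0.0426).

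EGLN3, which encodes the inducible hydroxylase PHD3, was a rare transcript, with 6, 4 and 12 counts after UC-764864 and 37, 30 and 17 counts after DMSO. These counts correspond to 0.27, 0.259 and 0.631 CPM and to 1.63, 1.23 and 1.12 CPM, so the groups do not overlap. A count of 3, taken as the floor, was worth 0.122 to 0.202 CPM. The log2 fold change was −1.77 ± 0.37 (SE; edgeR adjusted p = 0.0142), and the ratio of summed counts, DMSO over UC-764864, was 3.47 with a 95% interval from 2.15 to 5.84 for counting error only. Leaving out UDI0051 or UDI0054 ended the call (adjusted p = 0.0738 and 0.0614).

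The relation between the hydroxylase genes was also read within each library, where scaling cancels. The log2 ratio of EGLN3 to EGLN1 was −6.81 ± 0.53 after UC-764864 and −5.96 ± 0.45 after DMSO (SD, n = 3 per group; CPM with a prior count of 2). The groups overlapped, UDI0053 lying above UDI0056, and the difference of −0.85 did not pass an exact two-sided permutation test (p = 0.2, adjusted p = 0.2 over 3 pairs). With 3 libraries against 3, that test cannot go below 0.1.

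Among the targets, SLC2A3 was called and SLC2A1 was not in the pair of glucose transporter genes. SLC2A1, which encodes the widespread transporter GLUT1, was at 81.7, 73.5 and 88.9 CPM after UC-764864 and at 93.1, 98.3 and 87.0 CPM after DMSO. The groups overlap through UDI0053 and UDI0056. At −0.19 ± 0.12 (SE) on the log2 scale it missed the threshold (edgeR adjusted p = 0.291). With the GC trend removed it was called, at −0.31 ± 0.07 (adjusted p = 0.00382). The GC content of its transcripts is 56.9%.

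SLC2A3, which encodes the high-affinity transporter GLUT3, was at 73.1, 83.8 and 89.6 CPM after UC-764864 and at 202, 139 and 229 CPM after DMSO. The lowest DMSO library, UDI0055, still lay well above every UC-764864 library. SLC2A3 fell by 1.21 ± 0.17 on the log2 scale (edgeR adjusted p = 0.00357), to 43.3% of the DMSO level, and passed in all 6 fits without 1 library. The log2 ratio of SLC2A3 to SLC2A1 was 0.01 ± 0.18 after UC-764864 and 1.00 ± 0.46 after DMSO (SD, n = 3 per group). SLC2A3 had the larger count in every DMSO library, and in the UC-764864 libraries the ratio lay on both sides of 0. The difference of −0.99 had the smallest p that an exact two-sided permutation test of 3 against 3 can give (p = 0.1, adjusted p = 0.15 over 3 pairs). SLC2A14 is a near-identical copy, so reads may be split between it and SLC2A3. It held 74 to 83 counts per UC-764864 library and 99 to 152 per DMSO library, against 1294 to 1703 and 3387 to 4576 for SLC2A3, and it also fell (−0.59 ± 0.18, adjusted p = 0.0482), a call lost without UDI0051, UDI0053, UDI0054 or UDI0056.

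BNIP3 and BNIP3L encode related receptors of the outer mitochondrial membrane that bind ATG8 proteins and direct mitochondria to autophagy. BNIP3L, also called NIX, was at 70.3, 89.3 and 103 CPM after UC-764864 and at 200, 175 and 270.0 CPM after DMSO. Every DMSO library lay above every UC-764864 library by a wide gap. BNIP3L fell by 1.29 ± 0.18 on the log2 scale (edgeR adjusted p = 0.00328), and the call held without any 1 library (adjusted p from 8.01e-05 to 0.0151).

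BNIP3 was at 91.8, 120 and 133 CPM after UC-764864 and at 164, 138 and 211 CPM after DMSO. The groups do not overlap, but UDI0053 and UDI0055 lay next to each other. BNIP3 fell by 0.57 ± 0.17 on the log2 scale and passed narrowly (edgeR adjusted p = 0.0491). It was called in 1 of the 6 fits without a library, the one without UDI0055 (adjusted p = 0.013), and lost in the others (adjusted p from 0.0704 to 0.209). It was also lost without UDI0052 and UDI0056 together (adjusted p = 0.0707).

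The log2 ratio of BNIP3L to BNIP3 was −0.39, −0.43 and −0.36 in the UC-764864 libraries and 0.28, 0.34 and 0.35 in the DMSO libraries, so BNIP3L had the larger count after DMSO and BNIP3 after UC-764864. The SD was 0.03 after UC-764864 and 0.04 after DMSO (n = 3 per group), against a difference of −0.72 between the groups. The exact two-sided permutation test gave its smallest possible p of 0.1 (adjusted p = 0.15 over 3 pairs). Without any 1 library the difference stayed between −0.74 and −0.70. The pseudogene BNIP3P1 held 4 to 9 counts per library, against 1857 to 3715 for BNIP3.

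**Figure D2:**
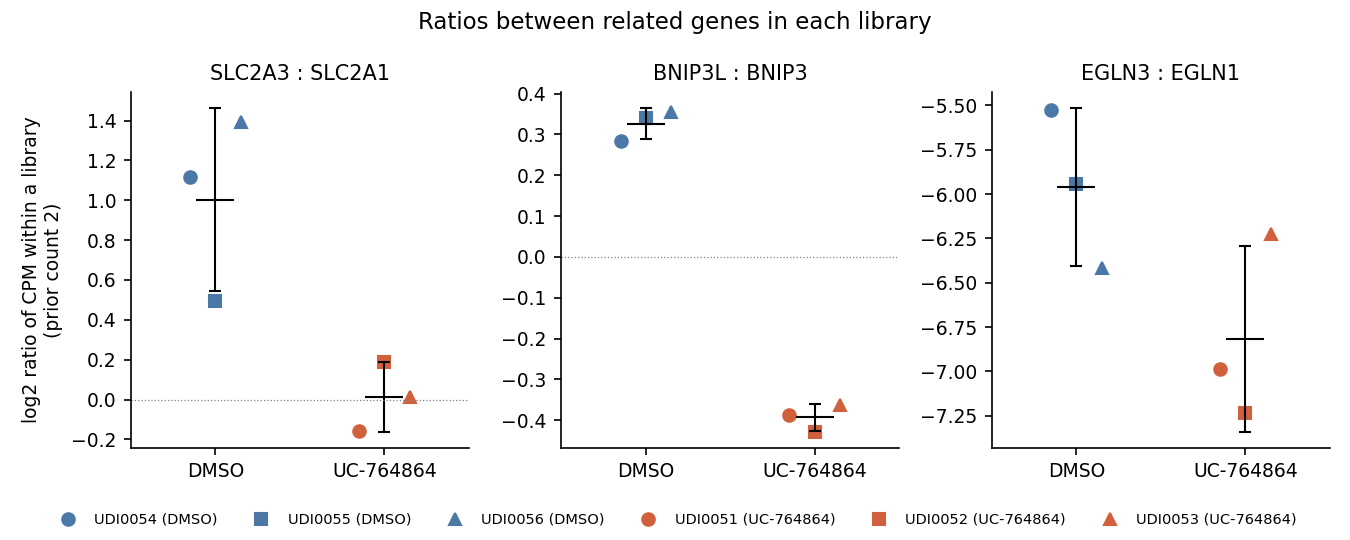
Log2 ratio of CPM (prior count 2) of SLC2A3 to SLC2A1, BNIP3L to BNIP3 and EGLN3 to EGLN1 within each library, with the group mean and SD in black; vertical axes differ between panels and do not all include 0, and marker shapes pair no libraries. The BNIP3L to BNIP3 ratio is −0.43 to −0.36 after UC-764864 and 0.28 to 0.35 after DMSO, whereas the EGLN3 to EGLN1 groups overlap.

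CA9 encodes carbonic anhydrase IX, a membrane enzyme that controls pH at the cell surface. It held 3, 6 and 6 counts in the UC-764864 libraries and 35, 30 and 28 in the DMSO libraries, or 0.135, 0.388 and 0.316 CPM and 1.55, 1.23 and 1.84 CPM. The groups do not overlap, and UDI0051 stood at the floor of 3 counts. The log2 fold change was −2.48 ± 0.38 (SE; edgeR adjusted p = 0.0045). CA9 passed the filter on low counts only through the DMSO libraries, so it had to be higher there to be tested. The summed counts, 15 and 93, gave a ratio of DMSO over UC-764864 of 5.64 with a 95% interval from 3.25 to 10.5 for counting error only. CA9 was called in all 6 fits without 1 library, at −2.78 to −2.10.

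VEGFA, the main growth factor for blood vessels, was at 97.3, 83.6 and 97.7 CPM after UC-764864 and at 142, 104 and 142 CPM after DMSO. The groups come close between UDI0053 and UDI0055 but do not overlap. VEGFA fell by 0.48 ± 0.14 on the log2 scale (edgeR adjusted p = 0.0468). It was called in 1 of the 6 fits without a library, again the one without UDI0055 (adjusted p = 0.00654), and lost in the others (adjusted p from 0.0697 to 0.172). It was lost as well without UDI0052 and UDI0056 together (adjusted p = 0.102).

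Within each group, the called genes often ranked the libraries alike. Of the 7, UDI0056 had the highest value among DMSO libraries for 6 and UDI0055 the lowest for 5, while UDI0053 had the highest among UC-764864 libraries for 6 and UDI0051 the lowest for 5. Among DMSO libraries EGLN3 differed, highest in UDI0054 and lowest in UDI0056, and EGLN1 was lowest in UDI0054. How many of all genes tested rank the libraries as the called genes do was not counted. On the main axis of variation over all genes tested (56.2% of the variance), UDI0055, UDI0054 and UDI0056 stood at 8.66, 21 and 41.8. UDI0051, UDI0053 and UDI0052 stood at −31.5, −21.4 and −18.5. UDI0055 and UDI0056 were thus the outermost DMSO libraries there too, and UDI0051 the lowest UC-764864 library. The highest UC-764864 library there was UDI0052, not UDI0053. UDI0056 also had the smallest share of GC-rich counts and the lowest total counts. The part of these in the results was not tested beyond the GC correction. With the GC trend of each library removed, all 7 were still lower, SLC2A1 was lower as well and HIF1A was higher, where 16.0% of the 12189 genes with a GC value were lower. With the rows of UDI0055 at 0 kept as counts, CA9, BNIP3L and SLC2A3 were called (adjusted p = 0.0479 each) and EGLN1, EGLN3, BNIP3 and VEGFA were not (adjusted p = 0.0541, 0.0611, 0.119 and 0.0935), where 0.891% of all genes were lower.

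**Figure D3:**
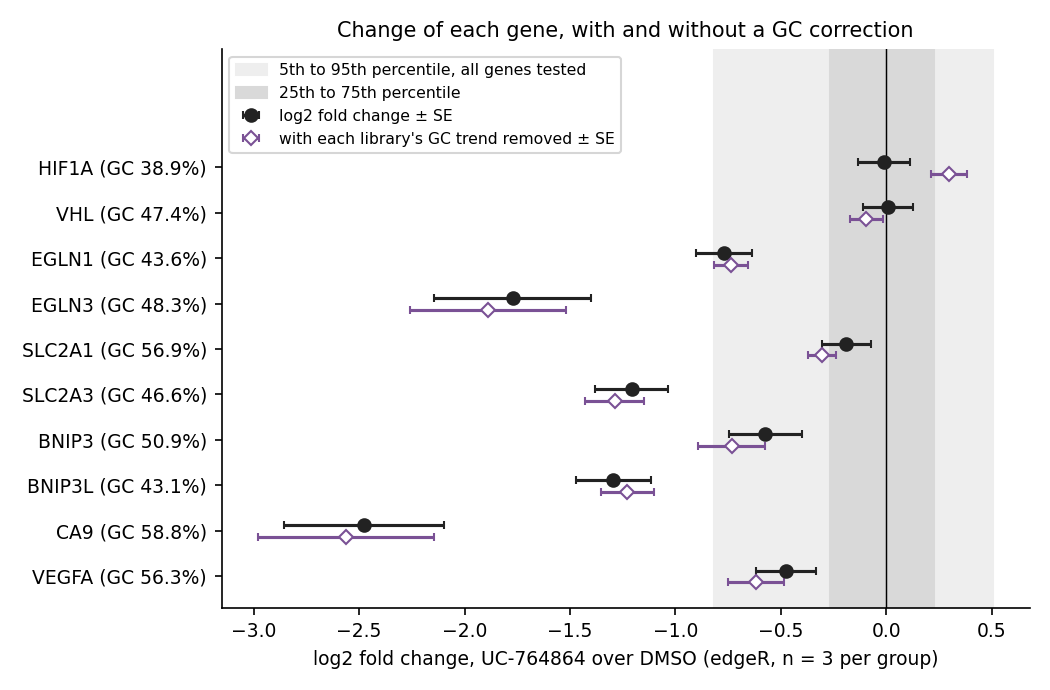
Log2 fold change, UC-764864 over DMSO, of each of the 10 genes (filled circles) and the same with each library's GC trend removed (open diamonds), with SE bars, n = 3 libraries per group; grey bands span the 5th to 95th and 25th to 75th percentiles of all genes tested. CA9, EGLN3, BNIP3L and SLC2A3 lie below the 5th percentile of −0.82, and HIF1A moves from −0.01 to 0.30 with the correction.

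Levels were compared between genes as CPM per kilobase of exon, with exon lengths from GENCODE 29 on GRCh38, since counts grow with length. After DMSO the order was BNIP3L at 49.9 ± 11.5, BNIP3 at 32.1 ± 6.97, SLC2A3 at 30.8 ± 7.53, SLC2A1 at 19.7 ± 1.19, VHL at 16.4 ± 1.39, EGLN1 at 12.2 ± 1.87, HIF1A at 11.2 ± 1.18, VEGFA at 8.95 ± 1.52, CA9 at 0.922 ± 0.185 and EGLN3 at 0.18 ± 0.0369 CPM per kilobase (SD, n = 3). BNIP3 and SLC2A3, and EGLN1 and HIF1A, differed by less than their SD. After UC-764864 BNIP3, at 21.6 ± 3.93, and BNIP3L, at 20.3 ± 3.84, differed by less than their SD, and SLC2A1, at 17.2 ± 1.64, and VHL, at 16.5 ± 1.24, stood above SLC2A3, at 13.3 ± 1.36. HIF1A, at 11.2 ± 0.892, was above EGLN1, at 7.15 ± 0.583, and VEGFA stood at 6.43 ± 0.558. CA9 and EGLN3 remained lowest, at 0.168 ± 0.0781 and 0.0526 ± 0.0288. Exons of all annotated isoforms were pooled, which makes long genes with many isoforms, such as VEGFA, look lower.

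The rest of the oxygen-sensing machinery comprises partners, hydroxylases, ligase subunits and coactivators of HIF. Of 18 genes listed, 16 were tested, 1 was higher and 0 were lower. The share higher, 6.25%, is near the 5.11% of all genes tested, and the log2 fold changes had a median of 0.00. The gene that rose was EP300, a histone acetyltransferase and HIF coactivator, from 109 ± 6.43 to 142 ± 7.53 CPM (SD, n = 3 per group; log2 fold change 0.38 ± 0.11, edgeR adjusted p = 0.0404), and this call was lost without any 1 library other than UDI0055. With the GC trend removed EP300 was at 0.25. The other genes of this list named here were picked for their role, with their values known. HIF1AN, the asparagine hydroxylase FIH, was at 0.33 ± 0.11 (adjusted p = 0.0599) and ARNT, the partner subunit, at 0.25 ± 0.11 (adjusted p = 0.136). HIF1AN was called in 3 of 14 alternative fits. These were DESeq2 (adjusted p = 0.0401) and edgeR with the GC trend removed or without UDI0055 (adjusted p = 0.0156 and 0.0408). The hydroxylase gene EGLN2 was at −0.10 ± 0.14 (edgeR adjusted p = 0.644). RBX1, a ligase subunit gene, was at −0.42 ± 0.15 and did not pass (adjusted p = 0.0808). EPAS1, which encodes HIF-2 alpha, was rare, at 1.14 ± 0.301 and 1.92 ± 0.513 CPM, and its −0.76 ± 0.29 did not pass (adjusted p = 0.102). It passed in 1 of 14 alternative fits, with the GC trend removed, at −0.91 ± 0.29 (edgeR adjusted p = 0.0299). HIF3A and ARNT2 were at or under the floor in every library.

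Further hypoxia targets outside glycolysis were read from the same fit. Of 45 listed, 37 were tested, 16 were lower and 1 was higher, or 43.2% and 2.7% beside 8.13% and 5.11% of all genes tested, with a median log2 fold change of −0.45. Of the 16, FLT1 and ANGPTL4 passed the filter on low counts only through the DMSO libraries. TMEM45A, a transmembrane protein gene, fell from 65.9 ± 15.6 to 25.9 ± 5.30 CPM (SD, n = 3 per group; −1.35 ± 0.19, edgeR adjusted p = 0.00357), and C4orf3, which encodes a small regulator of the calcium pump, fell from 116 ± 15.9 to 63.1 ± 4.22 CPM (−0.88 ± 0.13, adjusted p = 0.00384). INSIG2, a sterol-sensing regulator of SREBP, and DDIT4, an inhibitor of mTORC1 signalling, fell by 1.21 ± 0.19 and 1.05 ± 0.17 on the log2 scale (adjusted p = 0.0045 and 0.00588). INSIG2 is AT-rich, at 37.3% GC, and stood at −0.78 with the GC trend removed (adjusted p = 0.000284). ANGPTL4, a secreted inhibitor of lipoprotein lipase, held 18, 2 and 12 counts after UC-764864 and 105, 49 and 66 after DMSO, so UDI0052 was under the floor. The ratio of its summed counts, DMSO over UC-764864, was 6.26 with a 95% interval from 4.30 to 9.37 for counting error only (edgeR adjusted p = 0.00614). FLT1, a receptor of VEGFA chosen after its values were seen, held 2, 7 and 4 counts after UC-764864 and 41, 12 and 31 after DMSO. The call of FLT1 was lost without UDI0051 or UDI0053, and without UDI0054 it was not tested. HMOX1, which encodes heme oxygenase and is an NRF2 target as well as a HIF target, was the gene that rose, by 3.18 ± 0.16. Without UDI0051, UDI0053 or UDI0054 the number of lower genes was 5, 9 and 7. In those fits 2.03%, 3.31% and 3.49% of all genes tested were lower. ACGTG occurred in the promoters of 18 of the 28 tested genes of this list with a promoter entry, or 64.3%, beside 32.7% of tested genes. GCGTG also occurred in 18, or 64.3%, near the 59.1% of tested genes. Among the 12 lower genes with an entry the shares were 66.7% and 58.3%, close to those of the whole list.

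**Figure D4:**
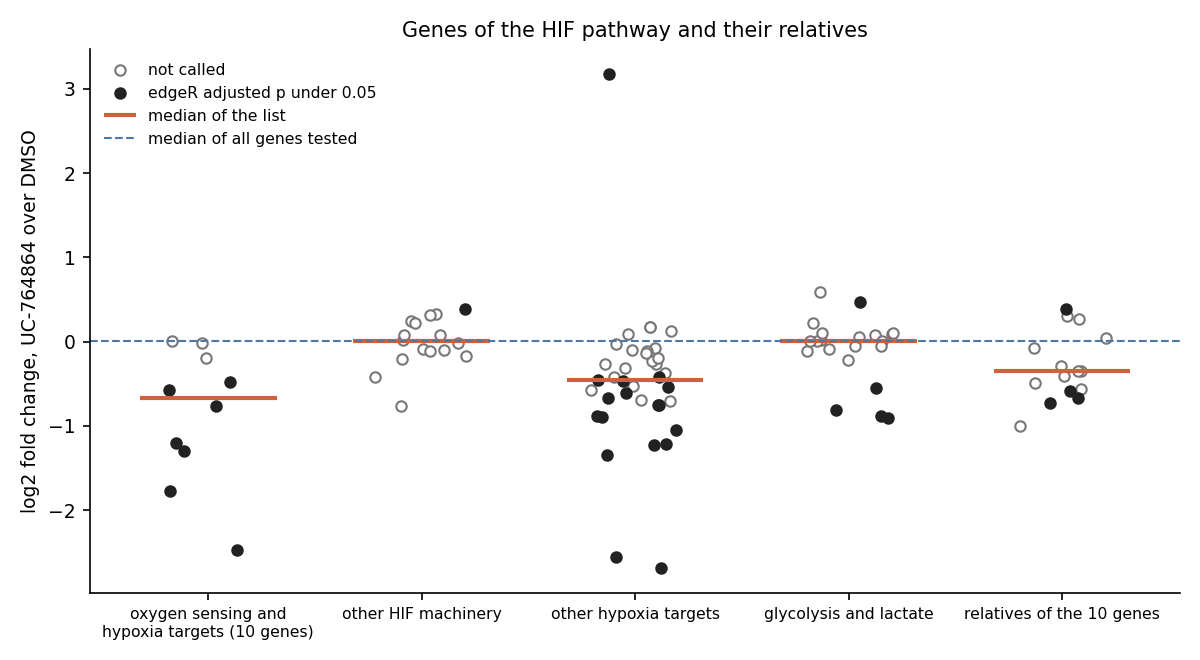
Log2 fold change, UC-764864 over DMSO, of the tested genes of each list (filled where the edgeR adjusted p was under 0.05), with the list median in orange and the median of all genes tested as a dashed line; horizontal scatter has no meaning. The 10 genes and the other hypoxia targets have medians of −0.67 and −0.45, whereas those of the other HIF machinery and of glycolysis lie at 0.00 and 0.01.

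Glycolysis and lactate genes, many of them HIF targets, were listed separately. Of 22 listed, 21 were tested, 4 were lower and 1 was higher, or 19.0% and 4.76% beside 8.13% and 5.11% of all genes tested, and the median was 0.01. ALDOC, the aldolase C gene, and ENO2, the gamma enolase gene, fell by 0.91 ± 0.17 and 0.88 ± 0.17 on the log2 scale (edgeR adjusted p = 0.00918 and 0.0117). PFKFB4, which sets the level of an allosteric activator of glycolysis, and PDK1, the kinase that limits entry of pyruvate into mitochondria, fell by 0.81 ± 0.18 and 0.55 ± 0.16 (adjusted p = 0.0162 and 0.0446). HK1, a hexokinase gene picked out with its values known, rose, at 0.47 ± 0.14 (adjusted p = 0.0482). Without 1 library, ENO2 was lost for UDI0054, PFKFB4 for UDI0051 or UDI0054, PDK1 for UDI0051, UDI0053, UDI0054 or UDI0056, and HK1 for any but UDI0055.

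Relatives of the 10 genes were compared for context. Of 23 listed, 15 were tested, 3 were lower and 1 was higher, or 20.0% and 6.67% beside the same shares of all genes tested, and the median log2 fold change was −0.35. Besides SLC2A14, the sugar transporter genes SLC2A5, which encodes the fructose transporter GLUT5, and SLC2A13, which encodes a myo-inositol transporter, were lower (−0.67 ± 0.12 and −0.73 ± 0.21, edgeR adjusted p = 0.00929 and 0.0425). CA2, which encodes a cytosolic carbonic anhydrase, rose from 315 ± 23.2 to 413 ± 13.3 CPM (SD, n = 3 per group; 0.39 ± 0.11, adjusted p = 0.0339), opposite in direction to CA9. SLC2A5 was lost without UDI0051, SLC2A13, at −0.42 without UDI0056 and −0.48 with the GC trend removed, without any but UDI0055, and CA2 without UDI0051, UDI0052, UDI0053 or UDI0054.

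Over the 6 libraries, the genes outside the 10 whose log2 CPM ran closest to the median profile of the 8 members above 5 CPM were CDKN1B, the gene of the cyclin-dependent kinase inhibitor p27, USMG5, MPC2, which encodes a subunit of the mitochondrial pyruvate carrier, HSPE1, which encodes a mitochondrial co-chaperonin, and C6orf120. Their root mean square distances were 0.0413, 0.0539, 0.0539, 0.0566 and 0.0583 log2 units among 9870 candidates, against 0.13 to 0.398 for the 8 members themselves. All 5 were lower after UC-764864, at −0.62 to −0.47, as the way they were picked fixes.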

How the data were processed

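The values are raw read counts per gene as the authors deposited them, with a column for each library. The submitters' processing notes name HISAT2 2.0.5, featureCounts 1.5.2, FastQC 0.11.7 and the build GRCh37, with no roles. Which annotation release and strand setting were used is not given in the sources used here, so antisense reads could be counted in with HIF1A. Treatments of the columns come from a deposited key, which holds no replicate numbers.

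The fit used edgeR 4.0.16 (R 4.3.3) on the 52839 of 56638 rows that all 6 libraries hold: filterByExpr (minimum count 10), TMM factors (0.978 to 1.03), glmQLFit and glmQLFTest on treatment alone, Benjamini-Hochberg over 13490 genes and a threshold of 0.05. SE is the size of the log2 fold change over the square root of F. CPM use TMM-scaled library sizes. The steps were tested on simulated data. Alternatives were DESeq2 1.42.0, RLE factors, library size only, no filter, all rows, a lowess GC trend per library (GENCODE 29 transcripts; 90.4% of tested genes had a value) and libraries left out. Intervals were computed on counts summed over libraries, so they cover counting error only, as the floors do. No molecular identifiers are named in the labels, so duplicate reads could be counted in.

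The 10 genes and the lists were chosen with earlier results of these data known. Named genes are the 10, the called genes of smallest p in each list (up to 6 for HIF machinery and hypoxia targets, up to 4 for the others), the gene of smallest p where none was called, and the 5 nearest profiles; marker genes, copies and antisense genes, PGK1 and other HIF machinery genes were named for their role, and they, FLT1 and HK1 were chosen with their values known.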

Additional observations from a re-analysis of the deposited data

How the results depend on the processing

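No paired analysis was possible because the columns carry no replicate numbers. The 7 lower genes of the 10 stayed lower in direction in every alternative run, and BNIP3L, SLC2A3 and CA9 passed in each. With every row as deposited, 3 of the 10 were called lower, with 22 of 14027 genes higher and 125 lower in all. HIF machinery then had 0 higher, other hypoxia targets 2 lower, glycolysis 0 higher and 0 lower, and relatives 0 higher and 1 lower. With UDI0055 left out and every row kept, 1401 of 14186 genes were higher and 1974 lower, with 1 of the HIF machinery lower and 2 of glycolysis higher. With the GC trend removed, 2077 of 12189 genes were higher and 1954 lower. Of the 10, 1 was then higher, 5 of the HIF machinery were higher and 2 lower, and 5 relatives were lower. With no filter, 827 of 24326 genes were higher and 1676 lower, with 0 of the HIF machinery higher. By library size only, 508 of 13490 genes were higher, and HIF machinery, glycolysis and relatives each had 0 higher. RLE factors gave 606 of 13490 genes higher, with 0 of glycolysis. DESeq2 gave 856 of 13490 higher, with 2 of the HIF machinery. In the main fit 690 of 13490 genes were higher, with 1 in each of these lists, so each list count rests on very few genes.

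Leaving out 1 library at a time gave 62 to 1525 genes higher, fewest without UDI0051, and 278 to 1729 lower. The lower genes were 2.03% to 12.6% of the 13614 to 13938 genes tested in these fits. Of the 10, 4 to 7 were lower, with 4 without UDI0051 or UDI0054, where 2.03% and 3.49% of all genes tested were lower. Other hypoxia targets had 5 to 20 lower, glycolysis 0 to 2 higher and 1 to 4 lower, relatives 0 to 1 higher and 0 to 3 lower, and HIF machinery 0 to 2 higher. HIF1A, which did not pass, ranged from −0.10 to 0.066 and was 0.015 without UDI0051, 0.035 without UDI0053 and 0.066 without UDI0056. It was 0.30 with the GC trend removed. VHL, which passed in none, was −0.011 by RLE factors and by DESeq2, −0.038 by library size only, −0.0025 with no filter, −0.015 with every row, −0.093 with the GC trend removed and −0.034 without UDI0052 and UDI0056. Leaving out 1 library gave −0.067 to 0.068 for VHL, with −0.067 without UDI0052, −0.0012 without UDI0053 and −0.063 without UDI0054. The cause of these shifts was not tested. EGLN3 and CA9 rest on few counts. The counting intervals given leave out variation between libraries, so the size of these changes is less certain than those intervals. Without 1 library, EGLN3 ranged from −2.30 to −1.53 and CA9 from −2.78 to −2.10.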

Other observations

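PGK1, the X-linked phosphoglycerate kinase gene of glycolysis and a HIF target, lies among the rows at 0 in UDI0055 and was not tested with the other genes. Scaled by library size alone, it was at 984, 1033 and 1030 CPM in UDI0051, UDI0052 and UDI0053 and at 1183 and 1209 in the DMSO libraries UDI0054 and UDI0056. In a fit without UDI0055 that kept every row, its log2 fold change was −0.18 ± 0.10 (SE, 3 libraries against 2) and did not pass (edgeR adjusted p = 0.184).

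HIF1A-AS2, an antisense transcript that overlaps the end of HIF1A, held 6, 7 and 7 counts in the UC-764864 libraries and 13, 14 and 14 in the DMSO libraries. Its log2 fold change of −0.90 ± 0.39 (SE) did not pass (edgeR adjusted p = 0.137). Its reads are few beside the 968 to 1414 counts of HIF1A per library.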
